A study of Homo sapiens with 6 samples.

Results

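The retinoblastoma (RB) pocket proteins and the E2F transcription factors form the switch that commits a cell to DNA replication. Their transcripts were examined in A498 cells, a line derived from a human clear cell renal carcinoma, after knockdown of the membrane-bound ubiquitin ligase RNF26. The 10 genes described are 3 pocket proteins (RB1, RBL1 and RBL2) and 7 E2F factors (E2F1, E2F2, E2F3, E2F4, E2F5, E2F7 and E2F8), chosen by name from a table of 61541 genes. All 10 reached the minimum for testing, a mean of 1 CPM, the gene's counts scaled to a common library size. In the 3 libraries labelled shRNF26 the cells carried a short hairpin RNA (shRNA) against RNF26, and in the 3 labelled shcontrol they carried the control shRNA. Both groups were the same line in the same medium, RPMI-1640 with fetal bovine serum. The treatment label of both reads transfection infection. The labels give neither the number of hairpins nor the time after their delivery. Nor do they name separate cultures behind the replicates, so each p-value rests on the spread among samples that may be technical replicates. The series title names CDK4/6 inhibitors, drugs that act on the kinases upstream of RB, and the stability of TSC1.

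In resting cells pocket proteins bind E2F factors and hold their target genes silent. Cyclin D with CDK4 or CDK6, and then cyclin E with CDK2, phosphorylate the pocket proteins, and the released E2F factors switch on genes for DNA synthesis. E2F1, E2F2 and E2F3 are the activators. E2F4 and E2F5 act mainly as repressors together with RBL1 (p107) and RBL2 (p130), and E2F4 with either of these joins the MuvB proteins in the DREAM complex, which silences cell cycle genes in quiescence. E2F7 and E2F8 are atypical repressors that need no dimerization partner and bind no pocket protein. Several of these genes are themselves E2F targets, E2F1 among them. Phosphorylation of pocket proteins, which sets their activity, is not seen in gene counts.

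The libraries held 16682871 to 18021718 gene counts. RNF26 had 68.4, 69.2 and 68.3 CPM (scaled by trimmed mean of M values, TMM) in shRNF26 libraries 1 to 3, against 2030, 1942 and 1945 CPM in shcontrol libraries, a log2 fold change of -4.84 (SE 0.040, edgeR adjusted p = 4.27e-24). Of 14766 tested genes, 6117 passed the edgeR quasi-likelihood test at an adjusted p below 0.05, or 41.4%, with 18.9% called higher and 22.6% lower. Scaling by total counts in place of TMM moved that split from 2785 higher and 3332 lower to 4449 higher and 2269 lower, with a shift of the median log2 fold change of all genes from 0.01 to 0.10. Of 18 markers of proximal tubule and clear cell carcinoma, 10 had under 1 CPM in the mean of all libraries, among them PAX2, CA9 and NDUFA4L2, and the line is named from the labels alone. Their summed level was 1362 to 1405 CPM in shRNF26 libraries and 1665 to 1685 CPM in shcontrol libraries, most of it the simple keratin KRT8. Of 9 fibroblast, 7 endothelial and 7 leukocyte markers, 7, 6 and 6 had under 1 CPM. Fibroblast markers summed to 99.9 to 106 CPM in shRNF26 libraries and 76.3 to 86.5 CPM in shcontrol libraries, endothelial markers to 5.3 to 7.4 CPM in shRNF26 libraries and 6.0 to 6.7 CPM in shcontrol libraries, and leukocyte markers to 1.7 to 1.9 CPM in shRNF26 libraries and 1.7 to 2.1 CPM in shcontrol libraries. COL1A1 gave most of the fibroblast sum, at 84.7 CPM in shRNF26 libraries and 59.5 CPM in shcontrol libraries, while COL3A1, COL1A2, DCN and PTPRC were at or near 0. The part of other cells in the results was not tested.

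Of the 10 genes, RBL2 and E2F2 were higher in shRNF26 libraries, E2F1, E2F3 and E2F7 were lower, and RB1, RBL1, E2F4, E2F5 and E2F8 did not pass the test. These 5 calls among 10 genes lie near the background of 41.4%. In 6 of the 10 genes the ranges of the 2 groups did not overlap, against 50.1% of all tested genes. The median log2 fold change of the 10 was -0.03, beside 0.01 over all tested genes. The size of the changes was ordinary too, apart from E2F2: 3.8% of tested genes changed by more than E2F2 in either direction, 22.1% by more than RBL2, 23.7% by more than E2F7, 37.7% by more than E2F1 and 54.3% by more than E2F3. In RNA from whole cultures, fewer cells in a cycle phase and less RNA per cell cannot be told apart.

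**Figure D1:**
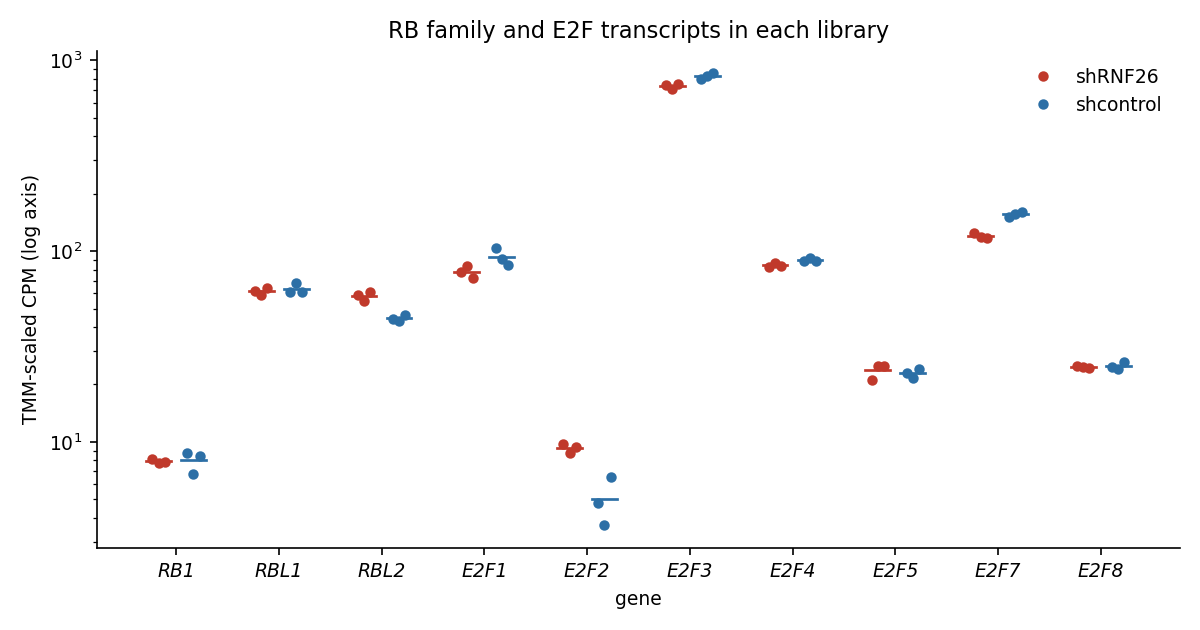
TMM-scaled CPM (log axis) of each of the 10 genes in each library, with shRNF26 to the left of shcontrol. Points are libraries and lines are means of 3. E2F3 is highest in every library, RB1 and E2F2 stand below 10 CPM in every library, and the points of RBL2, E2F1, E2F2, E2F3, E2F4 and E2F7 do not overlap between groups.

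The pocket proteins came first. RBL2, the pocket protein that accumulates in quiescent cells and recruits E2F4 to DREAM, was the only one of the 3 that passed the test. RBL2 had 58.9, 55.0 and 61.0 CPM in shRNF26 libraries, against 44.2, 43.2 and 46.2 CPM in shcontrol libraries. Every shRNF26 library was above every shcontrol library, and RBL2 rose 1.31-fold (0.39 ± 0.059 SE on the log2 scale, edgeR adjusted p = 3.3e-05). Part of the RBL2 exons lies opposite the exons of AKTIP on the other strand, over 610 bases in the GENCODE 29 annotation, and although the library kit in the labels keeps strand, whether the counting used it is not stated. AKTIP had 1280 counts over all 6 libraries together, and RBL2 had 1047, 1013 and 1048 counts in shRNF26 libraries and 770, 709 and 759 in shcontrol libraries.

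RBL1, whose transcript is usually high in cycling cells, did not pass. It had 62.1, 58.8 and 64.3 CPM in shRNF26 libraries and 61.4, 67.9 and 61.4 CPM in shcontrol libraries. The groups overlapped, and the log2 fold change was -0.04 with a 95% interval of -0.16 to 0.07 (edgeR adjusted p = 0.60). RB1, the founding tumour suppressor of the family and the main substrate of CDK4 and CDK6, was low in both groups. Its counts were 144, 143 and 135 in shRNF26 libraries and 153, 111 and 139 in shcontrol libraries, or 8.10, 7.77 and 7.85 CPM in shRNF26 libraries and 8.79, 6.76 and 8.47 CPM in shcontrol libraries. The groups overlapped, and the log2 fold change of RB1 was -0.02 with a 95% interval of -0.27 to 0.24 (edgeR adjusted p = 0.93). At that depth a change of RB1 inside this interval was not detectable. No exon of RB1 is shared with another gene of the same strand in GENCODE 29, but the annotation behind the counts is not named by any source read here.

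Among the activators, E2F2 was higher and E2F1 and E2F3 were lower in shRNF26 libraries. E2F2 had 174, 161 and 162 counts, or 9.79, 8.75 and 9.42 CPM, in shRNF26 libraries, against 83, 60 and 108 counts, or 4.77, 3.65 and 6.58 CPM, in shcontrol libraries. The shcontrol libraries differed from one another more than the shRNF26 libraries did, yet the highest of them stayed below every shRNF26 library. E2F2 rose 1.86-fold (0.90 ± 0.17 SE on the log2 scale, edgeR adjusted p = 0.00026). It was the largest change of the 10 genes, and E2F2 and RB1 had the fewest counts of them.

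E2F1, the activator best known for inducing both S phase genes and apoptosis genes, had 77.4, 83.6 and 72.1 CPM in shRNF26 libraries, against 104, 90.8 and 84.8 CPM in shcontrol libraries. The groups were separated by a narrow margin, between shRNF26 replicate 2 and shcontrol replicate 3. The log2 fold change of E2F1 was -0.26 (SE 0.068, edgeR adjusted p = 0.0045), and -0.17 with total-count scaling (adjusted p = 0.047). E2F3, the most abundant of the family here, had 741, 708 and 753 CPM in shRNF26 libraries, against 799, 829 and 856 CPM in shcontrol libraries. Every shRNF26 library was below every shcontrol library, and the change was -0.17 ± 0.037 (SE) on the log2 scale (edgeR adjusted p = 0.00095). That call was lost with total-count scaling (log2 fold change -0.08, adjusted p = 0.075), under which the median of all genes was 0.10. Gene counts do not separate the transcripts of E2F3 that start at different promoters.

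The promoters of these activators and of RBL1 are shown because they carry E2F motifs close to the start, the arrangement by which these genes can be regulated by their own family. RefSeq sequences on GRCh38.p14 were at hand for 8 of the 10 genes (all but E2F5 and E2F8), as 10 windows of 300 bases from 250 before to 50 after an annotated start, and were searched on both strands for the E2F heptamer TTTCCCG and its other common spellings, namely TTTCGCG, besides the spelling TTTGCCG and also the spelling TTTGGCG. The 4 windows that held a match are printed 5′ to 3′ on the strand of the gene, with matches in capitals and overlapping matches joined.
E2F1 (chr20:33686336-33686635, minus strand): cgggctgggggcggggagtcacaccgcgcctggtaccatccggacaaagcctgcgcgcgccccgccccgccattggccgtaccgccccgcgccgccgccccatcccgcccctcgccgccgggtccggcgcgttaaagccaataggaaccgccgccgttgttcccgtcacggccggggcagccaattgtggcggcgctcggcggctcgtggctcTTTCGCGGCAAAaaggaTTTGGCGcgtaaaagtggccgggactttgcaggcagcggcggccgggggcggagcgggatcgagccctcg
E2F2 (chr1:23531184-23531483, minus strand): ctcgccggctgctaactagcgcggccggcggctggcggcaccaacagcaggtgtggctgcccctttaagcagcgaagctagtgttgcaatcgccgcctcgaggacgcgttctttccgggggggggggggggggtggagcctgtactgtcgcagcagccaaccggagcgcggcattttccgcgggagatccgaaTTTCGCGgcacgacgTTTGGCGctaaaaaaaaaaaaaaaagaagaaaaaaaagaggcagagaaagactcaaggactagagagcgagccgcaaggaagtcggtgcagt
E2F3 (chr6:20401629-20401928, plus strand): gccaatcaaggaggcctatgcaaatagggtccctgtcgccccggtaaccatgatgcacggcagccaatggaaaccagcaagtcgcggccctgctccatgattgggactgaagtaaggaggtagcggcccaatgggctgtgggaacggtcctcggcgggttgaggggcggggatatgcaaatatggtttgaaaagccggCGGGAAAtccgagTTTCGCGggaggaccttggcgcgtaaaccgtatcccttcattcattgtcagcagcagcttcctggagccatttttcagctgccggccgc
RBL1 (chr20:37095948-37096247, minus strand): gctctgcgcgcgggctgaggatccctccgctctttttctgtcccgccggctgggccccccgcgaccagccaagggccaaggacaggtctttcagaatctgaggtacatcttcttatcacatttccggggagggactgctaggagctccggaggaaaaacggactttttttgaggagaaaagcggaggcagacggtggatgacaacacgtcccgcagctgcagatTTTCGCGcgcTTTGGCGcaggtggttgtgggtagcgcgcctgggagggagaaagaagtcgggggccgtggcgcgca
Each window held 2 separate stretches, all within 60 bases upstream of the start. The first match began 37 bases before the start in E2F1, 57 in E2F2, 52 in E2F3 and 26 in RBL1. In E2F1, E2F2 and RBL1 a TTTCGCG was followed by a TTTGGCG. A match to 1 of the 4 heptamers was present in 8.7% of 35116 windows of the same length. The second E2F3 window, both RBL2 windows and the E2F4, E2F7 and RB1 windows held no match, and the RB1 window is at a start inside the gene. Of the 4 genes with such stretches, E2F1 and E2F3 were lower, E2F2 was higher and RBL1 did not pass. Any part of the motifs in these changes was not tested.

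**Figure D2:**
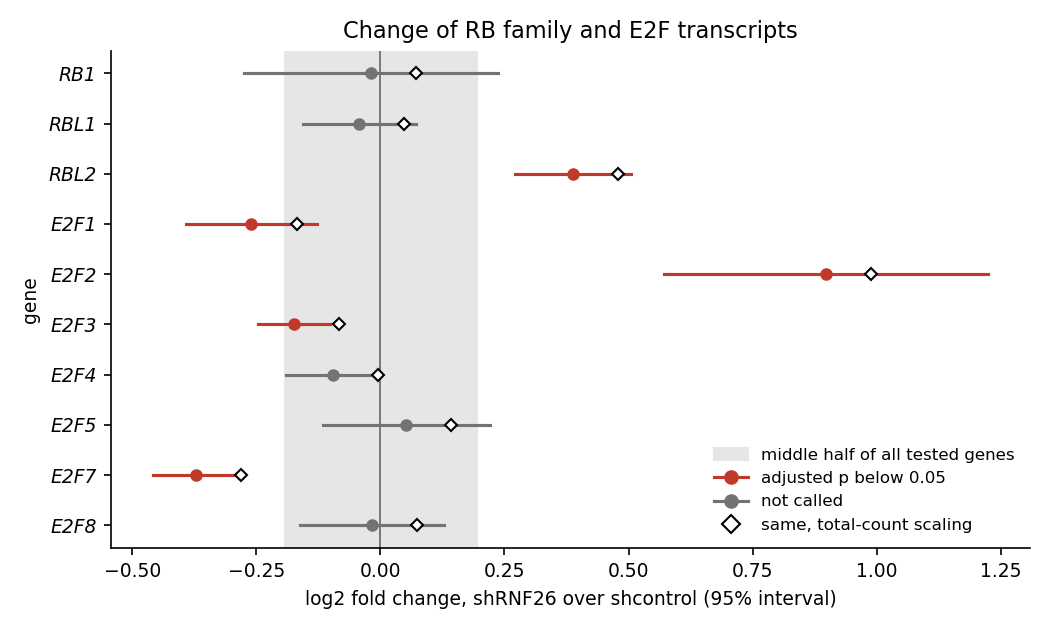
Log2 fold change of shRNF26 over shcontrol for each gene (points, edgeR with TMM scaling) with its 95% interval (lines). Open diamonds are the same values with total-count scaling and the grey band spans the 25th to the 75th percentile of all tested genes, -0.19 to 0.20. RBL2 and E2F2 lie right of the band, E2F7 and E2F1 left of it, and every diamond lies right of its point.

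Neither of the repressors that work with pocket proteins passed the test. E2F4, the main E2F bound to pocket proteins in quiescent cells, had 82.2, 86.7 and 83.8 CPM in shRNF26 libraries, against 88.6, 92.4 and 89.1 CPM in shcontrol libraries. The groups did not overlap, but the difference was small, with a log2 fold change of -0.10 (SE 0.048, edgeR adjusted p = 0.12) that became -0.0050 with total-count scaling. E2F5 had 21.05, 24.99 and 25.01 CPM in shRNF26 libraries and 22.9, 21.6 and 24.1 CPM in shcontrol libraries. These ranges overlapped, and the log2 fold change was 0.05 with a 95% interval of -0.12 to 0.22 (edgeR adjusted p = 0.66). E2F5 shares 969 bases of exon with a protein-coding gene on the opposite strand, C8orf59, which had 3074 counts over all 6 libraries, so its count is uncertain.

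The atypical repressors differed in outcome. E2F7 had 124, 119 and 118 CPM in shRNF26 libraries, against 151, 157 and 160 CPM in shcontrol libraries. The gap between the groups was wider than the spread within either, and E2F7 was 1.29-fold lower (-0.37 ± 0.044 SE on the log2 scale, edgeR adjusted p = 1.72e-06). It was the call with the smallest adjusted p of the 10 genes, and it held under total-count scaling at -0.28. E2F8 had 25.1, 24.6 and 24.3 CPM in shRNF26 libraries and 24.6, 24.2 and 26.1 CPM in shcontrol libraries. The groups overlapped closely, and the log2 fold change of E2F8 was -0.02 with a 95% interval of -0.16 to 0.13 (edgeR adjusted p = 0.88).

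Levels of different genes were compared per kb of exon, using the union of exons in GENCODE 29. E2F3 was far above the rest, at 142 ± 4.47 CPM per kb in shRNF26 libraries and 160.4 ± 5.51 CPM per kb in shcontrol libraries (SD, n = 3 each), a level above that of 98.8% of the tested genes. It made up 62.5% of the summed E2F level per kb in shRNF26 libraries and 62.1% in shcontrol libraries. E2F1 followed at 31.1 ± 2.30 CPM per kb in shRNF26 libraries and 37.2 ± 3.86 in shcontrol libraries. E2F4 stood at 23.5 ± 0.637 in shRNF26 libraries and 25.1 ± 0.566 in shcontrol libraries, and E2F7 at 19.1 ± 0.538 in shRNF26 libraries and 24.7 ± 0.728 in shcontrol libraries. The ranges of E2F4 and E2F7 overlapped in shcontrol libraries. In shRNF26 libraries every E2F4 value was above every E2F7 value.

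RBL1 came next, at 10.4 ± 0.459 CPM per kb in shRNF26 libraries and 10.7 ± 0.635 in shcontrol libraries. RBL2 stood at 7.97 ± 0.411 in shRNF26 libraries and 6.09 ± 0.212 in shcontrol libraries, and E2F8 at 5.96 ± 0.103 in shRNF26 libraries and 6.03 ± 0.239 in shcontrol libraries. By this length RBL2 and E2F8 did not differ beyond their spread in shcontrol libraries, whereas RBL2 was above E2F8 in every shRNF26 library. E2F5 was lower, at 4.0 ± 0.385 CPM per kb in shRNF26 libraries and 3.85 ± 0.212 in shcontrol libraries.

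RB1 and E2F2 ended the order. RB1 had 1.23 ± 0.0270 CPM per kb in shRNF26 libraries and 1.24 ± 0.169 in shcontrol libraries, a level above that of 18.6% of the tested genes. E2F2 had 1.71 ± 0.0971 in shRNF26 libraries and 0.916 ± 0.271 in shcontrol libraries. The values of RB1 and E2F2 overlapped in shcontrol libraries and not in shRNF26 libraries, where E2F2 was the higher. Per kb of the longest transcript instead, the shRNF26 ranges of RB1 and E2F2 overlapped. The mean of RBL2 then stood above that of RBL1 in shRNF26 libraries (11.9 against 10.9 CPM per kb). That of E2F4 stood above that of E2F1 there (32.2 against 31.1). In shcontrol libraries the ranges that overlapped per kb of exon were separate by the longest transcript. There RBL2 was above E2F8 (means 9.08 against 7.09), E2F4 above E2F7 (34.4 against 27.2) and RB1 above E2F2 (1.67 against 0.963). Order and overlap of these neighbours thus depend on the length taken. RB1 made up 6.27% of the summed pocket protein level per kb of exon in shRNF26 libraries and 6.90% in shcontrol libraries, RBL1 53.0% in shRNF26 libraries and 59.3% in shcontrol libraries, and RBL2 40.7% in shRNF26 libraries and 33.8% in shcontrol libraries.

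**Figure D3:**
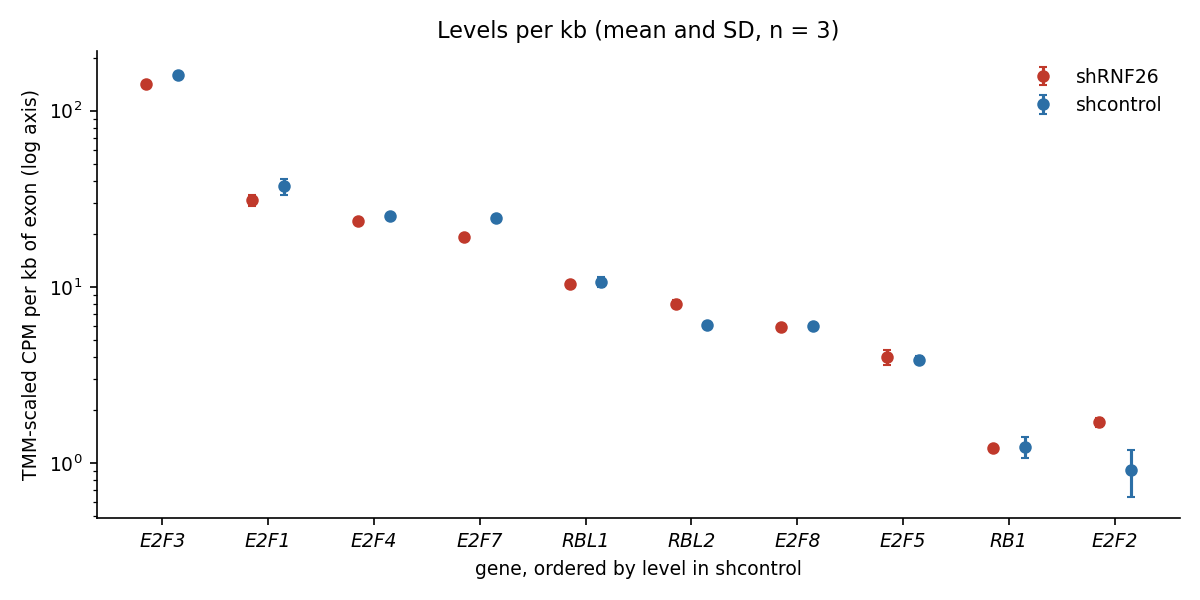
Mean TMM-scaled CPM per kb of exon (log axis) of each gene, ordered by its level in shcontrol, with shRNF26 to the left of shcontrol. Bars are SD over 3 libraries. E2F3 is highest at 142 CPM per kb in shRNF26 and 160.4 in shcontrol, and RB1 at 1.23 in shRNF26 and 1.24 in shcontrol and E2F2 at 1.71 in shRNF26 and 0.916 in shcontrol are lowest.

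Ratios of a pair of genes within a library do not depend on how libraries were scaled to one another. The log2 ratio of RBL1 to RBL2 per kb was 0.37, 0.39 and 0.37 in shRNF26 libraries, against 0.77, 0.95 and 0.71 in shcontrol libraries. The groups did not overlap, and the difference of means was -0.43. The log2 ratio of E2F7 to E2F8 was 1.70, 1.67 and 1.67 in shRNF26 libraries, against 2.01, 2.09 and 2.01 in shcontrol libraries, a difference of -0.36. Both shifts follow from the changes of RBL2 and E2F7 given above. Between E2F1 and E2F4 the difference in log2 ratio was -0.16, between E2F3 and E2F4 -0.08, between RB1 and RBL1 0.03 and between E2F1 and E2F7 0.11, and in these 4 pairs the groups overlapped.

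**Figure D4:**
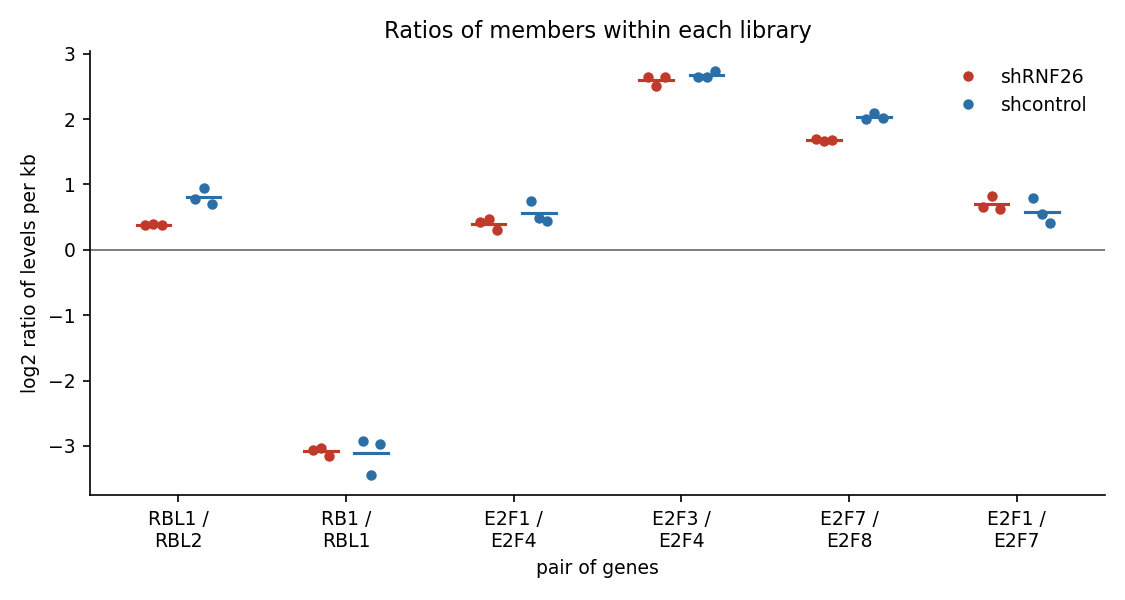
Log2 ratio of levels per kb of exon for 6 pairs of genes in each library, with shRNF26 to the left of shcontrol. Points are libraries and short lines are means of 3. The groups are separate for RBL1 over RBL2 and for E2F7 over E2F8, and overlap in the other pairs.

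Of 11 tested cyclins and kinases that phosphorylate pocket proteins, 7 were lower, 2 higher and 2 not called, or 81.8% called beside 41.4% of all tested genes, and the median log2 fold change was -0.22, beside 0.01 over all tested genes. Total-count scaling turned the split to 6 lower and 3 higher, where all tested genes had 2269 lower and 4449 higher. CCND1, which encodes cyclin D1, had a log2 fold change of -1.17 (SE 0.037), CDK6 -0.54 (SE 0.046) and CCNE1, for cyclin E1, -0.51 (SE 0.059). CDK4 was at 126 CPM in shRNF26 libraries and 125 CPM in shcontrol libraries and was not called. The 2 higher were CCNA2, for cyclin A2 (0.22), and CDK7, at 5.42 ± 6.77 CPM in shRNF26 libraries, of which the counts were 39, 16 and 227, against 10, 16 and 8 in shcontrol libraries. The CDK7 value rested on shRNF26 replicate 3, without which the log2 fold change was 1.17 in place of 2.98, and a robust edgeR fit ended the call (adjusted p = 0.17).

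Of 7 tested inhibitors of these kinases, 3 were lower, 1 higher and 3 not called, or 57.1% called beside 41.4% of all tested genes. Their median log2 fold change was -0.16, but -0.50 without shcontrol replicate 3. As a separate alternative, a minimum mean of 5 CPM also gave -0.50. CDKN2B (p15), which blocks CDK4 and CDK6, was 2.57-fold lower (log2 fold change -1.36, SE 0.085), CDKN1A (p21) 1.82-fold lower and CDKN2D (p19) 1.81-fold lower. CDKN2C (p18) was 1.56-fold higher, at 12.6 ± 1.36 CPM in shRNF26 libraries and 8.09 ± 0.487 CPM in shcontrol libraries. CDKN2A was not called, at 385 ± 32.7 CPM in shRNF26 libraries and 429 ± 54.6 CPM in shcontrol libraries (log2 fold change -0.15, edgeR adjusted p = 0.082). Among the 9 tested genes for pocket protein phosphatases and E2F turnover, 4 were higher and 1 lower. That is 55.6% called, beside 41.4% of all tested genes. Their median was 0.10, with 0.05 without shcontrol replicate 3 and 0.16 without shcontrol replicate 1. Total-count scaling gave 5 higher and 0 lower, where all tested genes had 4449 higher and 2269 lower. CCNF, for cyclin F, a ubiquitin ligase subunit that targets activator E2F proteins, was 1.33-fold higher. FZR1 and CDC20, the activators of the anaphase-promoting complex, had log2 fold changes of 0.28 and 0.23. PPP1CC, a catalytic subunit of protein phosphatase 1, was lower by this test at -0.14 but not called with total-count scaling (-0.04).

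The partners of E2F split. TFDP1, the main dimerization partner of E2F1 to E2F6, was lower, at 373 ± 1.73 CPM in shRNF26 libraries and 421 ± 3.32 CPM in shcontrol libraries (-0.18 ± 0.035 SE on the log2 scale, edgeR adjusted p = 0.00058), and not called with total-count scaling (-0.08). TFDP2, a second partner, was higher (0.16 ± 0.053 SE on the log2 scale, edgeR adjusted p = 0.022), but not called without shRNF26 replicate 1 and without shcontrol replicate 2. TFDP3 was at 0 in every library, and E2F6, a repressor that binds no pocket protein, was not called (-0.16). Of 9 tested MuvB, MYB and related genes, 4 were lower and 1 higher (median -0.13), or 55.6% called beside 41.4% of all tested genes. With total-count scaling 1 was lower and 2 higher, where all tested genes had 2269 lower and 4449 higher. MYBL1, a MYB family factor, was 1.88-fold lower, LIN52, the MuvB subunit phosphorylated by DYRK1A for DREAM assembly, had -0.28, and DYRK1A itself -0.21. The last 2 of these calls were lost with total-count scaling. FOXM1, which takes the place of repressors at mitotic genes, had 0.15. Of 16 tested RB corepressor genes, 4 were higher and 3 lower (median 0.03), or 43.8% called, near the 41.4% of all tested genes. With total-count scaling 8 were higher and 0 lower, where the split of all tested genes also moved, to 4449 higher and 2269 lower. RBBP8 had a log2 fold change of 0.31, SUV39H1, a histone methyltransferase recruited by RB, 0.22, ARID4A -0.28 and KMT5B -0.22, the last pair of calls lost with total-count scaling.

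Of 45 tested G2/M genes, which DREAM represses in resting cells and MYBL2 and FOXM1 activate with MuvB, 40 were higher in shRNF26 libraries and 0 lower, or 88.9% called beside 18.9% of all tested genes called higher. Their median log2 fold change was 0.29, beside 0.01 over all tested genes, and 34 to 37 were called higher when any 1 library was left out. KIF20A, a mitotic kinesin, had 89.8 ± 5.89 CPM in shRNF26 libraries and 54.2 ± 1.23 CPM in shcontrol libraries (1.66-fold), HMMR was 1.58-fold higher, the phosphatase gene CDC25B 1.55-fold and CDK1, the mitotic kinase, 1.44-fold. With edgeR 0 of the 45 were lower at an unadjusted p below 0.05, and DESeq2 called 36 higher and 0 lower.

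Of 55 tested G1/S genes, the usual targets of activator E2F, 12 were higher, 18 lower and 25 not called, or 54.5% called beside 41.4% of all tested genes, with a median of -0.06. The split depended on the scaling, with 20 higher and 6 lower under total-count scaling and 16 higher and 9 lower under upper-quartile scaling. All tested genes had 4449 higher and 2269 lower under total-count scaling, and 3742 higher and 2681 lower under upper-quartile scaling. Without shRNF26 replicate 1 only 19 were called, 9 higher and 10 lower, beside 2184 higher and 2791 lower of 14738 genes tested there. The share of G1/S genes called was thus not above that of all tested genes by a like margin in every setting. CDC25A, a phosphatase that activates CDK2, was 1.70-fold lower (log2 fold change -0.76, SE 0.051), SLBP, which binds the histone mRNA stem-loop, 1.66-fold lower, and USP1, a deubiquitinase of DNA repair, 1.46-fold lower. POLA2, a subunit of DNA polymerase alpha, was the largest rise at 1.35-fold. Of 10 tested apoptosis genes described as E2F1 targets, 4 were lower and 3 higher (median 0.04), or 70% called beside 41.4% of all tested genes. Without shRNF26 replicate 1 they gave 3 lower and 1 higher, where fewer of all tested genes were called too. Among the called were PMAIP1, for the BH3 protein NOXA, 2.77-fold lower, BBC3, for PUMA, 1.73-fold lower, and MAP3K5, a stress-activated kinase, 1.27-fold higher.

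**Figure D5:**
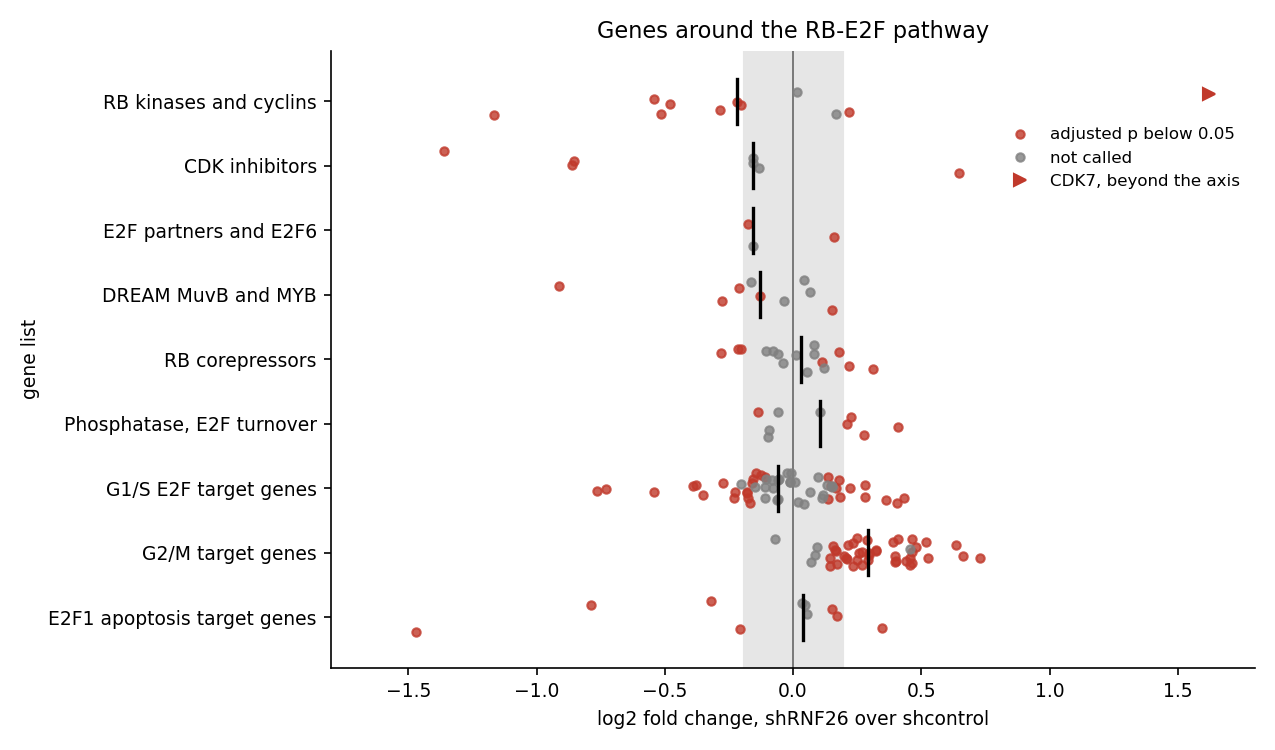
Log2 fold change of shRNF26 over shcontrol for each tested gene of 9 lists around the pathway. Red points passed the edgeR test and grey points did not, vertical bars are list medians, and the grey band spans the 25th to the 75th percentile of all tested genes. Of the 45 G2/M genes, 44 lie right of 0, with a median of 0.29, the G1/S genes lie on both sides with a median of -0.06, and CDK7 at 2.98 is drawn as an arrow at the edge.

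The G1/S genes were listed as genes with E2F sites and the G2/M genes as DREAM and MuvB targets, so the motifs in their promoters are no independent finding. A match to 1 of the 4 E2F heptamers was present in 48.6% of 70 windows of G1/S genes and 18.4% of 49 windows of G2/M genes, beside 8.7% of all windows. The hexamer TTTGAA, the core of the CHR element bound by MuvB, was present on either strand in 5.7% of the G1/S windows and 59.2% of the G2/M windows, beside 15.2% of all windows. These shares describe letters in windows and not binding, and genes with several starts count more than once.

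Among 165 tested genes of these lists, those whose log2 level over the 6 libraries was most like E2F2 were BIRC5 (r = 0.97), SKP2 (r = 0.95) and CCNB2 (r = 0.95), and those most like E2F7 were MYBL1, CDC25A and TFDP1 (r = 0.99 each). These are descriptions over 6 libraries in 2 groups, so the difference between the groups sets most of each value.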

How the data were processed

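Total RNA was sequenced from 6 A498 libraries, 3 labelled shRNF26 and 3 labelled shcontrol. The authors deposited 1 table of whole-number read counts for 61541 genes. Its name speaks of FPKM, but the values are raw counts that sum to 16682871 to 18021718 per library. Reads were aligned to hg19, per the submitters' processing notes, and no source read here names the aligner, counting rule, annotation or strand setting. Symbols came from a gene name table (61369 IDs) and GENCODE 29 (159 more), exon lengths and overlaps from GENCODE 29, and promoters from RefSeq (GRCh38.p14).

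Genes with a mean of at least 1 CPM (14766) were tested with the quasi-likelihood test of edgeR 4.0.16 (R 4.3.3) with TMM scaling and Benjamini-Hochberg adjustment, after tests on simulated data. CPM values are the deposited counts scaled by TMM. Before that scaling 1 count is worth 0.0555 to 0.0599 CPM. Intervals are 1.96 SE each side. limma 3.58.1, DESeq2 1.42.0, other scalings and filters, a replicate block and leaving out each library served as alternatives. Each list names up to 4 called genes with the largest changes, in both directions where both occur, except that 1 such gene is not reported here, and CDK4, CCNA2, TFDP3 and E2F6 were named after their values were seen. The members, the lists and the rule were chosen with earlier results of these data known. Counts of replicates differed by more than sampling noise.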

Additional observations from a re-analysis of the deposited data

How the results depend on the processing

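RBL2 (log2 fold change 0.36 to 0.48), E2F2 (0.72 to 1.14), E2F7 (-0.40 to -0.28) and E2F1 (-0.33 to -0.17) kept their direction and stayed called under all 17 alternatives. E2F3 was not called with total-count scaling (-0.083, adjusted p = 0.075). The uncalled RB1, RBL1 and E2F8 changed sign with the scaling: with upper-quartile and total-count scaling RB1 had 0.035 and 0.072, RBL1 0.011 and 0.048, and E2F8 0.036 and 0.073. Leaving out 1 library gave -0.13 to 0.052 for RB1, -0.071 to 0.0054 for RBL1 and -0.042 to 0.0104 for E2F8. Over all tested genes the calls numbered 6117 (2785 higher, 3332 lower), with 4449 higher and 2269 lower under total-count scaling, 3742 higher and 2681 lower under upper-quartile scaling, 5330 in all with DESeq2, and 4975 to 5804 when 1 library was left out. The G1/S count of 30 called ranged from 19 to 29 when 1 library was left out. Of 577 values of 34 other named genes under alternatives, 25 lost the call and 0 changed sign. Per kb of the longest transcript, mean levels over all libraries were 1.66 CPM for RB1, 10.5 for RBL2, 164.5 for E2F3, 33.3 for E2F4, 4.61 for E2F5, 24.1 for E2F7 and 7.05 for E2F8. A fit with the replicate number as a block called 6414 genes and changed no call among the 10 genes. Deviations of same-numbered libraries correlated by 0.01, -0.03 and 0.09, so the numbers were not read as pairs. RB1, with 111 to 153 counts, and E2F2, with 60 to 174, had the widest intervals.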

Other observations

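CDK7, the kinase of the CDK-activating complex, was the gene of these lists with the least even replicates. Its counts were 39, 16 and 227 in shRNF26 libraries and 10, 16 and 8 in shcontrol libraries, which is low for a kinase that every dividing cell uses. The mitotic genes PRC1 and NUSAP1 also had low counts. PRC1 had 68, 46 and 47 counts in shRNF26 libraries and 52, 54 and 53 counts in shcontrol libraries, and NUSAP1 had 26, 24 and 16 counts in shRNF26 libraries and 10, 15 and 20 counts in shcontrol libraries. In GENCODE 29, PRC1 shares 3181 bases of exon with AC068831.7 on the same strand, which had 1229 counts over all 6 libraries, and NUSAP1 shares 1787 bases with AC087721.2. Whether such sharing set these counts was not tested.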
